A study of Caenorhabditis elegans with 2 samples.

Results

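The regions described here are the HLH-30 binding peaks of Caenorhabditis elegans that carry the palindromic class B E-box, CACGTG, beside their summit. A peak was taken when the hexamer lay wholly inside the 50 bp on each side of the summit, the point of highest enrichment in the peak, read from the reference genome WBcel235, which is ce11. Of the thresholded peaks, 792 met this rule and 6376 did not, which makes a share of 11.0% (95% Wilson interval 10.3 to 11.8, which covers counting error only). They held 827 distinct sites of the 17729 in the 6 nuclear chromosomes. The peaks come from chromatin immunoprecipitation with sequencing (ChIP-seq) on whole hermaphrodites at the L4 larval stage, the last before adulthood. The animals were of strain OP433, whose genotype is unc-119(tm4063) III; wgIs433, and wgIs433 is the transgene that supplies HLH-30 with GFP and FLAG at its C terminus. The antibody recognised GFP, the chromatin was sonicated, and 2 biological replicates formed the only group, so the series holds no contrast of conditions. All results come from 1 transgenic line, and since whole animals were used, occupancy of a site in many cells and strong occupancy in few cannot be told apart.

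HLH-30 is the worm counterpart of mammalian TFEB, a basic helix-loop-helix leucine-zipper factor that moves into the nucleus when nutrients are scarce or TOR signalling is low. Factors of this family bind DNA as dimers, each partner of the dimer reading one side of the E-box, and those of class B, which include Myc, Max and TFEB, favour the palindrome. In mammals, TFEB acts on a form of this site with particular bases beside it in promoters of lysosome and autophagy genes, and in worms HLH-30 is known for its part in autophagy, lipid breakdown during fasting, longevity and defence against infection.

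The following sites lay at the strongest of the E-box peaks and at genes of autophagy and of the Max-like network, and are shown because the bases beside the hexamer differ among them. Each is given as the forward strand of WBcel235 (RefSeq), 5′ to 3′, with 12 bases on each side and the E-box in capitals.
nearest aakg-3, chrX:2971624-2971653: tgctgtcaaactCACGTGcctggaaaaaga
F56C9.10 promoter, chrIII:7335400-7335429: cttttcacttctCACGTGtgctagacatga
epg-7 promoter, chrX:7334560-7334589: gcctctgtacgtCACGTGatttgcagccgc
mif-4 and ipla-6 promoters, chrIV:6336847-6336876: cccagacaagacCACGTGcttttcggttta
intron of aakg-1, chrIII:12568449-12568478: atcggccgtcgtCACGTGgtcagcagcagc
atg-9 promoter, chrV:349206-349235: ccacccgctgttCACGTGccccctccctcc
C36E6.2 promoter, chrX:17451571-17451600: cgtgcactaacaCACGTGccattctcattg
nearest letm-1, chrV:13658749-13658778: attctcccatacCACGTGgtgtttcagacc
hlh-11 promoter, chrIII:9619148-9619177: tcggtgcccatcCACGTGcccatcgtttct
mdl-1 promoter, chrX:6742214-6742243: tcatgcgaggcgCACGTGcatacacacaca
atg-3 promoter, chrIV:1009758-1009787: tgcacagttgctCACGTGagacactgtcag
mml-1 promoter, chrIII:7375085-7375114: cagttgttacaaCACGTGaccgactaaaag
epg-5 promoter, chrII:6609567-6609596: aactgaacacagCACGTGaagagggaaaat
atg-13 promoter, chrIII:8158571-8158600: gtgcgcctgcttCACGTGatggccgagaac

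In all, 758 of the peaks had 1 site, 33 had 2 and 1 had 3. The peak with 3 sites lay between genes on chromosome IV, nearest to tpra-1, and had a signal value of 302. Its summit window is shown because the sites stand close together, and a peak nearest to lpin-1, the lipin gene of fat synthesis, is shown as an example of 2 sites far apart.
nearest tpra-1, chrIV:8949798-8949898: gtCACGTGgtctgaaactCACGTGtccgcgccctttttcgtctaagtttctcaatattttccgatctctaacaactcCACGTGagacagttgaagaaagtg
nearest lpin-1, chrV:13657473-13657573: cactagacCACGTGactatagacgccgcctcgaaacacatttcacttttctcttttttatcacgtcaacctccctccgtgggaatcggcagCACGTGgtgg
At the 34 peaks with more than 1 site, neighbouring sites were 9 to 84 bp apart, with a median of 25 bp. The median signal value was 76.0 for peaks with 1 site and 109 for those with 2.

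Each peak carries the authors' own signal value, a score whose scale is not stated in the labels or files, so it was used only to rank and describe peaks. The files hold no read counts, and the depth behind each value is unknown. The signal value of the E-box peaks ran from 31.9 to 691 with a median of 77.1 (quartiles 49.95 and 133). The other 6376 thresholded peaks ran from 31.9 to 1388 with a median of 60.2 (quartiles 42.6 and 99.2). The ratio of the medians was 1.28, a description that was not tested, and both sets covered most of the same range. Both replicates showed the same order when the rule was applied to an equal number of the strongest peaks of each replicate alone. In replicate 1 the medians were 40.6 with the E-box and 31.1 without, and in replicate 2 they were 41.2 and 31.5, a ratio of 1.31 in each.

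The replicates resembled each other at these peaks. The rule found 773 peaks in replicate 1 (10.8%) and 750 in replicate 2 (10.5%), a mean of 10.6% ± 0.227 (SD, n = 2). In the replicates alone, 806 and 777 sites lay beside a summit, and 543 did so in both, which is 67.4% of those of replicate 1 and 69.9% of those of replicate 2. Of the 792 pooled peaks, 661 (83.5%, interval 80.7 to 85.9) overlapped one of these strongest peaks in each replicate by at least 1 bp, against 77.9% of the other peaks. When at least 50% of both overlapping peaks had to be shared, the share of E-box peaks was 64.1%. Across the 789 E-box peaks with an entry in both replicate lists, the signal values had a Spearman's rho of 0.80, and across the 6329 other such peaks it was 0.72. These points are peaks from the same libraries, all chosen on the pooled signal. A replicate value is that of the entry overlapping the pooled peak most, the stronger in a tie, so it can belong to a neighbour where peaks touch.

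**Figure D1:**
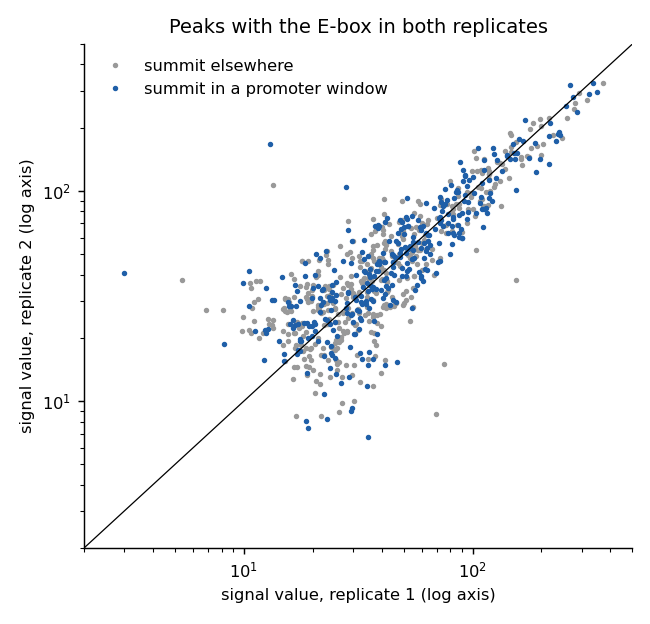
Authors' signal value of each E-box peak in replicate 1 (x) and replicate 2 (y), both on log axes; blue points have their summit in a promoter window, grey points elsewhere, and the line marks equal values. The points spread more widely around the line at low than at high values, and promoter and other peaks lie in the same cloud.

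The E-box was most frequent in the strongest peaks. With the list divided into 10 equal parts by signal, 19.1% of the strongest part had it (137 of 717 peaks) and 6.84% of the weakest (49 of 716, interval 5.22 to 8.93). Replicate 1 alone went from 19.2% to 7.12% and replicate 2 alone from 17.3% to 5.59%. Of the 10 strongest peaks, 1 had the hexamer (10%, interval 1.79 to 40.4). Of the 100 strongest, 21 had it, of the 200 strongest 47, and of the 1000 strongest 181. The weakest E-box peak stood at rank 7165.

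**Figure D2:**
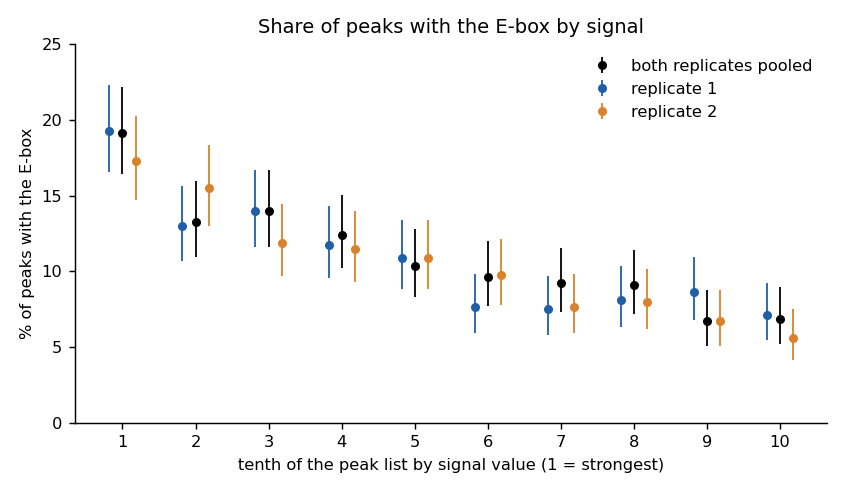
Percent of peaks with the E-box (y) in each of 10 equal parts of the peak list by signal value (x, 1 is the strongest), for both replicates pooled and for each replicate alone; vertical lines are 95% Wilson intervals. The share is between 17.3% and 19.2% in the strongest part and between 5.59% and 7.12% in the weakest.

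Sites gathered around the summit without a sharp edge at the limit of the rule. The median distance from the middle of the nearest site to the summit was 19.5 bp, and 61.2% of the peaks had a site within 25 bp. Measured to the summit of each replicate's own entry, the median was 20.5 bp in replicate 1 and 23.5 bp in replicate 2, and the site stayed within 50 bp for 87.7% and 85.6% of the peaks. At the edge of the rule, 120 peaks had sites only in the outermost 10 start positions on either side, and their signal values had a median of 75.4 (range 31.96 to 402). The 90 peaks whose nearest site lay in the next 10 positions outside had a median of 82.2 (range 33.8 to 684).

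**Figure D3:**
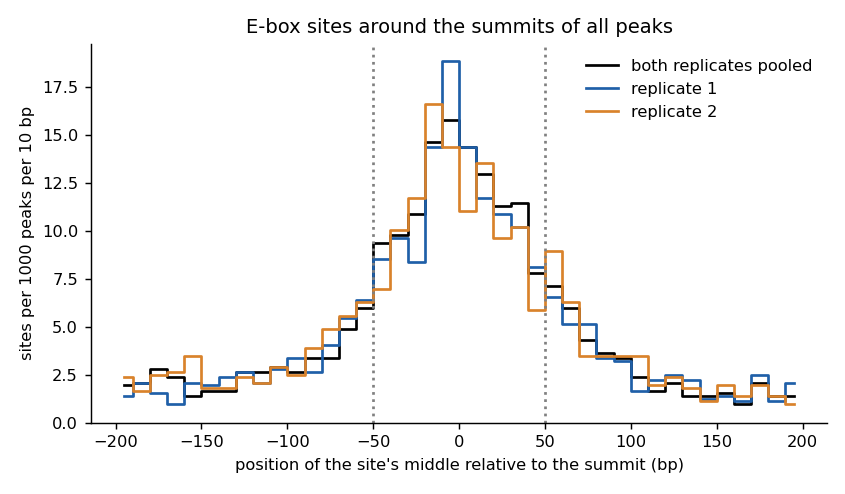
E-box sites per 1000 peaks in bins of 10 bp (y) by distance of the site's middle from the summit (x, bp), over all thresholded peaks and over as many of the strongest of each replicate; dotted lines mark 50 bp, the limit of the rule. The density is highest at the summit and falls on both sides, passing the limit without a step.

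E-box peaks were less often in promoters than the peaks as a whole, and more often in introns and coding exons. A promoter window covered the 1000 bp before and the 200 bp after an annotated 5′ end, for each transcript of a protein-coding gene. It held the summit of 357 E-box peaks, 45.1% (interval 41.6 to 48.6), against 51.3% of all peaks. Replicate 1 alone gave 44.6% and replicate 2 alone 45.3%. Introns held 166 (20.96% against 17.1%), coding exons 31 (3.91% against 2.06%) and the space between genes 211 (26.6% against 25.42%). These shares were set side by side without a test. A further 14 summits lay in exons of noncoding RNAs or pseudogenes, 8 in 3′ UTRs and 5 in 5′ UTRs outside promoter windows. E-box summits lay a median of 927 bp from the closest 5′ end in the annotation, and the others 705 bp. Trans-splicing is common in worms, so these ends may differ from the starts of transcription.

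**Figure D4:**
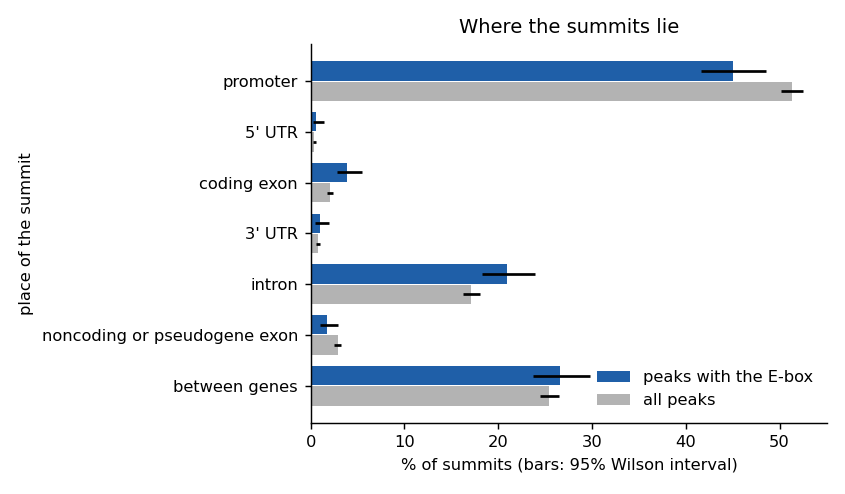
Percent of summits (x) in each kind of place (y) for the 792 E-box peaks (blue) and all thresholded peaks (grey); black lines are 95% Wilson intervals. Promoters hold 45.1% of E-box peaks and 51.3% of all peaks, and coding exons 3.91% and 2.06%.

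The signal of E-box peaks differed by place. Its median was 88.4 in promoters, 78.8 between genes, 72.9 in introns and 50.7 in coding exons, while all peaks in the same places had medians of 66.2, 61.5, 56.9 and 44.8. The strongest in each place were the F56C9.10 promoter (661), the peak nearest aakg-3 between genes (691), an intron of F09A5.3 (588) and a noncoding or pseudogene exon nearest mdl-1 (479). In a 3′ UTR of C05D11.8 the signal was 305, and atgl-1, which encodes the adipose triglyceride lipase of the worm, had the nearest 5′ end at 1829 bp. The strongest in a 5′ UTR was inside C34C12.2 (234), and in a coding exon inside rml-4 (121, with 2 sites).

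Only a small share of E-boxes in the genome was occupied, and the share depended on place. Of the 17729 sites, 4.66% lay beside a thresholded summit (interval 4.36 to 4.98). The share was 7.67% of the 4865 sites in promoter windows, 6.74% of those between genes, 4.62% of those in introns and 0.751% of the 5195 in coding exons. Coding exons thus held 29.3% of all sites and 39 of the 827 occupied ones. Sites in lower-case reference sequence, which marks repeats, made up 5.20% of occupied and 18.2% of other sites.

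By chromosome, X held the most E-box peaks, 185 or 23.4% of them, close to its 23.5% of all peaks. It had the fewest sites per megabase (139) and the highest share of them occupied, 7.83% (interval 6.83 to 8.95). Chromosome I had the most sites per megabase (223) and the lowest share occupied, 3.06% (interval 2.53 to 3.70). The other autosomes lay between, from 3.76% on V to 5.34% on II.

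The 20 strongest E-box peaks lay at genes of autophagy and vesicle traffic, around genes of AMPK, the cellular energy sensor, and at genes with no such role. The strongest of all stood at rank 10 of the whole list (chromosome X, 2971427 to 2971894), between genes, with values of 370 and 328 in replicates 1 and 2. The nearest 5′ end, 4795 bp away, was that of aakg-3, a gamma subunit gene of AMPK. Another gamma subunit gene, aakg-1, had 2 of the 20 around it on chromosome III. One lay in its intron (12568205 to 12568648), with values of 277 and 244, and the other 8272 bp from its 5′ end between genes (12583487 to 12583844), with 291 and 293. None of these summits was in a promoter window, and a nearest gene is a position, not a shown target.

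Among the promoters, F56C9.10 came first (chromosome III, 7335234 to 7335617), 126 bp upstream, with 338 and 325, or 331 ± 8.83 (SD, n = 2). RefSeq describes its product as a BCAS3 WD40 protein, and in mammals BCAS3 is found at forming autophagosomes. The promoter of epg-7, which encodes a scaffold of selective autophagy, had 323 and 290, or 307 ± 23.2 (SD, n = 2). That of unc-108, the gene of Rab-2, a GTPase of vesicle traffic and fusion with lysosomes, had 275 and 281, or 278 ± 3.87 (SD, n = 2), 39 bp upstream. That of atg-9, whose product is the membrane protein of the vesicles that seed autophagosomes, had 285 and 236, or 261 ± 34.7 (SD, n = 2). That of C36E6.2, whose product has the FW domain of NBR1 per RefSeq, had 237 and 186. NBR1 is a receptor of selective autophagy in mammals. At each of these promoters both replicates were far above the E-box peaks' median of 38.5 in replicate 1 and 40.6 in replicate 2. These peaks were chosen by pooled signal, which draws on both replicates, so such values follow largely from the choice.

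The other promoters among the 20 were those of scpr-1 and gpap-1, at a single peak with signal 644, and of mif-4 and ipla-6, at another with 593. The gene mif-4 encodes a relative of macrophage migration inhibitory factor and ipla-6 a patatin-like phospholipase. F26F12.3, with an IBR domain of ubiquitin ligases, had 518. The gene ubxn-3, for a cofactor of the protein-unfolding enzyme CDC-48, had 427, F21C10.10 had 425, and met-1, a histone H3 lysine 36 methyltransferase gene, had 420. A further 3 were intronic, in F09A5.3 (588), Y43F8B.2 (539) and haf-9 (433), which encodes an ABC transporter. The other 3 had mdl-1 (479, in a noncoding or pseudogene exon), letm-1, a gene for a mitochondrial ion exchanger (421), and R03E9.2 (416) as the nearest gene. All 20 were among the strongest peaks of both replicates, which their choice by pooled signal made likely.

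**Figure D5:**
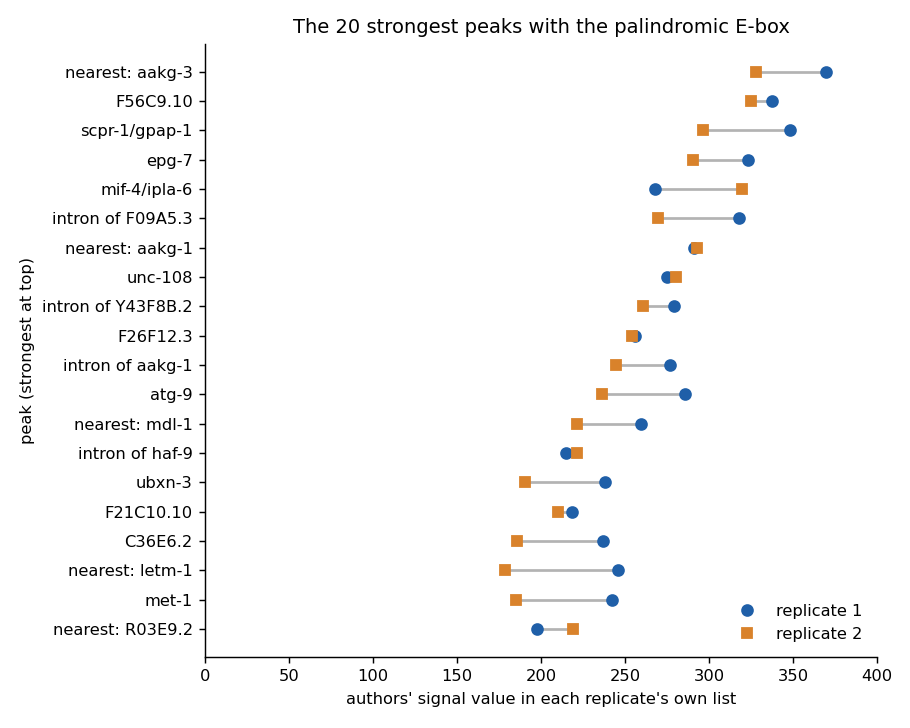
Authors' signal value (x) of the 20 strongest E-box peaks (y) in replicate 1 (blue circles) and replicate 2 (orange squares), joined by a grey line; labels give the gene whose promoter window or intron holds the summit, or the nearest 5′ end. Values run from 370 at the peak nearest aakg-3 down to 178 at the one nearest letm-1.

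At the level of genes, 386 of 19973 protein-coding genes had an E-box summit in a promoter window, and 1.93% is the background for the counts that follow. They were 9.62% of the 4012 genes with any thresholded summit there. Of the E-box peaks in promoters, 45 lay in windows of 2 or more genes. The gene lists were written with earlier results of these data known, so their counts describe the lists and carry no test.

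Autophagy genes had an E-box peak at 5 of 34 (14.7%, interval 6.45 to 30.1), which is 5 of the 22 with any promoter peak. Beside epg-7 and atg-9 these were atg-3, for the enzyme that attaches Atg8 to lipid, epg-5, for a tether of autophagosomes to lysosomes, and atg-13, for a partner of the kinase that starts autophagy. The peak at atg-3, 782 bp upstream and shared with Y55F3AM.9, had 112 and 141 in the replicates, or 126 ± 20.5 (SD, n = 2). That at epg-5 had 54.4 and 76.2, and that at atg-13 had 61.2 and 56.4. The members thus ran from the start of the pathway to fusion with the lysosome, and all 5 were above the median of the E-box peaks in both replicates.

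Lysosomal hydrolase and membrane protein genes had an E-box peak at 7 of 58 (12.1%, interval 5.97 to 22.9), or 7 of 27 with any peak, but every one of them was weak. In order of signal they were lipl-5 (61.4), asm-1 (60.1), aagr-1 (53.8), lipl-2 (51.05), asah-1 (46.98), gba-1 (43.99) and cpr-1 (36.96), all under the median of 77.1. The genes lipl-2 and lipl-5 encode lysosomal lipases, asm-1 an acid sphingomyelinase and asah-1 an acid ceramidase. The gene gba-1 encodes a glucocerebrosidase, aagr-1 a relative of acid alpha-glucosidase and cpr-1 a cathepsin B-like protease. At lipl-5 the replicates gave 32.8 and 29.0, and at cpr-1 14.3 and 19.2. Summits at lipl-5, aagr-1, lipl-2, asah-1 and cpr-1 were within 100 bp upstream of the 5′ end, and that at gba-1 was 147 bp downstream. None of the 21 vacuolar ATPase genes had an E-box peak (interval 0 to 15.5%), though 10 had a promoter peak of some kind.

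Each list of nutrient signalling genes had an E-box peak in promoters at 1 gene, and both intervals include the background of 1.93%. In the list of TOR and AMPK signalling it was 1 of 29 (3.45%, interval 0.611 to 17.2), or 1 of 15 with any peak. This gene was aak-2, which encodes a catalytic subunit of AMPK. Its E-box peak was 986 bp upstream, with 37.3 and 24.0 in the replicates, and a stronger promoter peak of the gene (94.4) had no E-box at its summit. In the insulin-like list it was 1 of 15 (6.67%, interval 1.19 to 29.8), or 1 of 7 with any peak. This gene was smk-1, a cofactor gene of the FOXO factor DAF-16, with 86.1 and 69.2 in the replicates, also beside a stronger peak (252).

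Lipid metabolism genes had an E-box peak at 4 of 54 (7.41%, interval 2.92 to 17.6), or 4 of 33 with any peak. The strongest was at pmt-1, a methyltransferase gene of phosphatidylcholine synthesis (chromosome II, 5282280 to 5282524), 46 bp upstream, with 2 sites and values of 86.5 and 98.6, or 92.5 ± 8.58 (SD, n = 2). Phosphatidylcholine synthesis also involves pcyt-1, for the enzyme that activates phosphocholine, and sams-1, for one that makes the methyl donor S-adenosylmethionine, with signals of 57.99 and 52.9. The last was fasn-1, the fatty acid synthase gene (58.2). Replicate 1 was lower than replicate 2 at these last 3 genes, with 18.5 and 39.5 at fasn-1, 18.5 and 45.5 at pcyt-1, and 17.05 and 33.5 at sams-1. The one-carbon list had 3 of 30, sams-1 again, gln-3, a glutamine synthetase gene (130), and mthf-1, for methylenetetrahydrofolate reductase (82.9).

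Genes of the Max-like network and other bHLH factors had an E-box peak at 3 of 41 (7.32%, interval 2.52 to 19.4), or 3 of the 7 with any promoter peak. They were hlh-11, the worm relative of mammalian AP-4, with 170 and 218 in the replicates, or 194 ± 33.6 (SD, n = 2), mdl-1, a Mad-like partner of a Max homologue, with 155 and 100.5, or 128 ± 38.9 (SD, n = 2), and mml-1, a Mondo-like gene, with 89.8 and 59.9, or 74.8 ± 21.1 (SD, n = 2). Around mdl-1 the E-box peaks lay close together. Between 6735471 and 6744262 on chromosome X, 5 E-box peaks stood among 13 thresholded peaks, with signals from 85.3 to 479, and 2 of them were in its promoter window (253 and 194). This was 1 of 22 runs of at least 3 E-box peaks whose summits were less than 5000 bp apart, which held 73 of the 792. The share of all thresholded peaks in such runs was not measured, so clustering particular to E-box peaks is not shown. Another run of 5 lay around H18N23.2 on X (66.5 to 270). Runs of 4 lay around Y43F8B.2 on V (151 to 539) and gln-3 on IV (50.8 to 130). Around mnk-1 on II, a kinase gene that acts on translation initiation, runs of 4 and 3 had a highest signal of 241 and 215. Neighbouring peaks share a region and are not independent.

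In the remaining lists, shares of genes ran from 0 to 7.14%. Nuclear hormone receptors had 10 of 269 (3.72%, interval 2.03 to 6.71), of which nhr-68, a regulator of propionate breakdown, nhr-32 and nhr-133 were strongest (262, 209 and 133). Ribosomal protein genes had a promoter peak of some kind at 70 of 81, yet an E-box peak at 3, rpl-14 (292), rps-29 (148, shared with snt-2) and rps-28 (72.4). Glycolysis genes had 2 of 28, hxk-3 for a hexokinase (167) and aldo-2 for an aldolase (129). Cell cycle genes had 2 of 40, cdk-2 (84.95) and cyb-1 (32.01, shared with orc-5). Immune response genes had 2 of 47, lys-4 (47.4) and cnc-2 (32.5). A single gene each was found among stress response and longevity genes, mitochondrial ribosomal proteins and neuropeptides. They were wdr-23 of 50 (74.7), for the adaptor that limits SKN-1, mrpl-13 of 70 (43.3) and ins-12 of 140 (88.4). The E-box peaks at rps-28, wdr-23 and cyb-1 stood beside stronger promoter peaks of the same genes (212, 241 and 95.1). No E-box peak lay in promoters of the lists for ribosome biogenesis, nuclear pore, heterochronic timing, respiratory chain, proteasome, translation factors, membrane traffic, aminoacyl-tRNA synthetases, ceh homeobox genes, collagens or C-type lectins, among the names that matched a gene. Of these, the respiratory chain list had 48 genes, 32 of them with a promoter peak, and translation factors 45, of which 28 had one. The membrane traffic list holds rab-2, another name of unc-108, which matched no gene, so the E-box peak of unc-108 (554) is not in its count.

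The aldehyde dehydrogenase class alh, chosen after its values were seen, had an E-box peak at 5 of 13 genes (38.5%, interval 17.7 to 64.5). The strongest was at alh-8 (301), which encodes a dehydrogenase of propionate breakdown, with 152 and 151 in the replicates. It was followed by alh-1 (167), alh-6 (150, shared with fcho-1), alh-3 (117, shared with mogs-1) and alh-5 (87.4).

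The share of sites that were occupied differed with the base on each side of the hexamer. An occupied site is one within 50 bp of a thresholded summit, and all other sites of the same hexamer in the nuclear genome served for comparison. Sites are not replicates, and the tests count them over both replicates pooled. Joining reverse complements gives 10 classes of the E-box with 1 base on each side, and 8 of them, 80%, differed from all other sites (two-sided Fisher's exact test, adjusted p below 0.05 over the classes). In the pooled list the class GCACGTGA was occupied most often, at 9.11% of its 1174 sites (interval 7.60 to 10.9). All other sites were occupied at 4.35% (Fisher's exact test, adjusted p = 6.98e-11). The epg-5 and atg-9 sites printed above are of this class. The palindrome TCACGTGA, found at epg-7, atg-3 and atg-13, followed at 8.68% of 1267 (Fisher's exact test, adjusted p = 4.44e-10). It stood above GCACGTGA in each replicate alone, with the stronger 50% of peaks and with windows of 100 bp. The same held with other sites limited to those in no pooled entry, and with repeat-masked sites left out. With windows of 25 bp and with promoter sites only, GCACGTGA stood higher. The classes GCACGTGC at 7.91%, ACACGTGA at 7.23% and ACACGTGC at 6.29% were also occupied more often. The call for ACACGTGC was lost with the stronger 50% of peaks, with promoter sites only and with repeat-masked sites left out (Fisher's exact test, adjusted p = 0.062, 0.098 and 0.072), and that for GCACGTGC with windows of 25 bp (Fisher's exact test, adjusted p = 0.234).

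At the other end, CCACGTGG was occupied at 1.5% of its 3000 sites (interval 1.12 to 2.00), against 5.31% of all other sites (Fisher's exact test, adjusted p = 3.81e-23). ACACGTGG, at 2.55% of 3370 sites, and ACACGTGT, at 2.96%, were also occupied less often, and CCACGTGA (5.13%) and CCACGTGC (3.93%) did not pass the test. The call for ACACGTGT was lost with windows of 25 bp and with promoter sites only (Fisher's exact test, adjusted p = 0.158 and 0.177). In the replicates alone, the share was 9.03% and 8.09% for GCACGTGA and 9.23% and 8.68% for TCACGTGA. For CCACGTGG it was 1.57% in each. These classes were chosen as extremes of the pooled list, which draws on both replicates, so their separation in each replicate follows largely from the choice. Within promoter windows the share ran from 1.82% for CCACGTGG to 17.3% for GCACGTGC, which had only 110 sites there.

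The share rose with the number of T bases directly 5′ of the hexamer, counted on both strands. It was 3.1% with none, 6.65% with 1 and 8.68% with 2. With C there it fell, from 7.03% to 3.74% and 1.5%. Strength did not follow the same order, since the median signal was 74.8 at GCACGTGA, 78.5 at TCACGTGA and 92.6 at CCACGTGG sites, the last from only 45 sites. One of these was the strong peak nearest letm-1 (421). Rarely occupied classes thus also held strong peaks.

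Farther out the differences were smaller. Over 10 positions outward and 4 bases, 21 of 40 tests passed, 52.5% (two-sided Fisher's exact test, adjusted over the 40). With sites in promoter windows only, 9 passed. At position 1, counted outward from the hexamer on either side, T was present at 60.1% of occupied and 38.97% of other sites, and C at 40.3% and 61.3% (Fisher's exact test, adjusted p = 1.90e-31 for each). At position 2, T was less frequent at occupied sites, 44.1% against 54.2% (Fisher's exact test, adjusted p = 1.55e-07), and G more frequent, 46.3% against 39.6%. The call for G was lost with windows of 25 bp, with promoter sites only and with repeat-masked sites left out (Fisher's exact test, adjusted p = 0.163, 0.280 and 0.223). From position 3 on the called differences were at most 7.29 percentage points. Among the 108 ten-letter forms with at least 50 sites in the genome, the share occupied ran from 17.2% for CCCACGTGAC (11 of 64 sites, interval 9.88 to 28.2) to 0.446% for GCCACGTGGC (2 of 448, interval 0.123 to 1.61).

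E-box peaks differed from the other peaks also in the rest of the summit window. With the E-box itself masked, the presence of every other hexamer, reverse complements joined, was compared between the 792 windows and the 6376 windows of other peaks. In E-box peaks, 89 hexamers, 4.28%, were less frequent, and 4, 0.192%, were more frequent (two-sided Fisher's exact test, adjusted over all hexamers). The other E-box found at many HLH-30 summits, CACATG, was in 8.59% of the E-box peaks and 15.98% of the other peaks (Fisher's exact test, adjusted p = 3.53e-06). With windows of 25 bp this call was lost (Fisher's exact test, adjusted p = 0.299). In the wider windows the difference was seen both in promoters, with 8.12% against 13.0%, and elsewhere, with 8.97% against 19.2%. Against windows 500 bp to the left of the same E-box summits, CACATG was instead 4.798 percentage points more frequent. Both kinds of site stood in 68 of the 792 windows. None of the remaining 8 E-box forms passed the test, with shares from 1.89% to 9.47% in E-box peaks.

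The hexamers that were less frequent often contained CG. The strongest call was ACGCGC, in 2.27% of E-box peaks against 8.52% of the others (Fisher's exact test, adjusted p = 6.03e-09), and 56 of the 89 contained CG, while 603 of all hexamers tested did. The repeat GAGAGA was in 17.4% against 24.8% (Fisher's exact test, adjusted p = 2.63e-04). The hexamer ATCATC was in 12.5% of E-box peaks and 8.31% of the others, and AACAGT was in 7.32% and 4.23%. The hexamer ACTGAT was in 11.24% and 7.67%, and AAACTG in 11.9% and 8.28%. These were the 4 that were more frequent. In replicate 2 alone only 1 hexamer was more frequent and ATCATC lost its call (Fisher's exact test, adjusted p = 0.198), as it did outside promoter windows (Fisher's exact test, adjusted p = 0.732). Composition moved with these calls. The windows of E-box peaks had a median GC content of 41.1%, against 44.6%, and a mean of 3.92 CG dinucleotides, against 5.20, with the E-box masked. Masking 1 site takes up to 11 of the 96 start positions of a window. Over all hexamers the median ratio of the shares was 0.889, with 0.764 for hexamers containing CG and 0.941 for those without. A lower share of any single hexamer has to be read against these ratios. With peaks outside promoter windows only, 11 hexamers were called, all less frequent. The part of composition in these calls was not tested.

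Some E-box peaks were not among the strongest of both replicates, though 789 of the 792 had an entry in both full replicate lists. In both strongest sets were 83.5% of the E-box peaks and 77.9% of the other peaks. Of the 6376 other peaks, 680 overlapped a strongest peak of replicate 1 alone, 649 of replicate 2 alone, and 83 of neither. Of the 792 E-box peaks, 58 overlapped a strongest peak of replicate 1 alone, 66 of replicate 2 alone, and 7 of neither. The strongest of these were at sec-12, a gene of the secretory pathway (136), with 72.8 in replicate 2 and no entry in replicate 1, at a peak 2204 bp from the autophagy gene atg-2 (89.1), with 75.3 in replicate 1 and 15.01 in replicate 2, and at ZK673.1 (71.9), with 34.8 in replicate 2 and no entry in replicate 1.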

How the data were processed

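The text that came with the samples says that the authors made 3 peak lists against a control, 1 per replicate and 1 for both pooled, and then a thresholded list by the irreproducible discovery rate. The peak caller, the aligner and the threshold were not given in these sources, and the control library was not used here. The deposited signal value is the authors' own score per peak. The thresholded list holds the strongest of the 30000 pooled entries, so as many of the strongest entries of each replicate stood for that replicate. Peak coordinates (ce11) were matched to the WBcel235 sequence (RefSeq) and the Ensembl release 115 annotation. Fisher's exact tests with Benjamini-Hochberg adjustment (adjusted p below 0.05) used scipy 1.17.1 under Python 3.11.15, with numpy 2.4.6 and matplotlib 3.10.9. The scans were first run on simulated data. There all 20 planted hexamers were called, and 68 of 2059 others, all sharing letters with a planted one. Only more frequent hexamers were planted, in windows otherwise of the same base composition, so calls of less frequent hexamers were not checked. Presence of the E-box at a summit was not tested, since it is the rule.

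The peaks and the 27 gene lists were chosen with earlier results of these data known. No gene matched 29 of the list names (rab-2, annotated as unc-108, among them), so these are in no count, and 22 genes belong to several lists. Genes named are those at the 20 strongest E-box peaks, at the peak with the most sites and at the strongest in each kind of place. From the autophagy, lysosomal, TOR and AMPK, insulin-like, lipid and Max-like lists, all genes with an E-box promoter peak are named. From each other list the 3 strongest are named. Also named are genes at the 3 strongest E-box peaks that were among the strongest of only 1 replicate. The lpin-1, alh, H18N23.2, Y43F8B.2 and mnk-1 peaks and the run around gln-3 were chosen after their values were seen. Alternatives were single replicates, the stronger 50% of peaks, E-box windows of 25 and 100 bp, other promoter windows, other comparison sites and windows, and a stricter overlap.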

Additional observations from a re-analysis of the deposited data

Results flagged for a closer look

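The E-box at pooled entries below the threshold was measured in no comparison, though these entries served once to leave out comparison sites. Of these 22832 entries, 870 (3.81%, 95% Wilson interval 3.57 to 4.07) had the E-box within 50 bp of the summit. Equal windows placed 500 bp to the left of the same summits held it in 399 cases (1.75%, interval 1.59 to 1.93). Divided into 4 equal parts by signal, the share fell from 5.97% in the strongest part to 2.31% in the weakest.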

How the results depend on the processing

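With replicate 2 or replicate 1 alone, the share of peaks with the E-box was 10.5% to 10.8%, the ratio of median signals 1.31 in each, the promoter share 44.6% to 45.3%, the share of genes 1.87% to 1.89%, the called classes 8 in each, the called bases 21 to 22 and the companion hexamers 67 to 87. With the stronger 50% of peaks, the share of peaks was 13.8%, the ratio of medians 1.11, the promoter share 48.1%, the share of genes 1.32% and the companion hexamers 54. With windows of 25 bp these were 6.33%, 1.26, 45.8%, 1.13% and 21, and with windows of 100 bp they were 15.1%, 1.28, 43.6%, 2.55% and 162. A promoter window of 500 bp upstream and 100 bp downstream held 30.9% of the summits and gave 1.31% of genes, and one of 2000 bp and 200 bp held 61.7% and gave 2.93%. The stricter overlap of 50% left 64.1% of E-box peaks among the strongest of both replicates.

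Among base tests, 9 passed with sites in promoter windows only, and 11 with repeat-masked sites left out, an alternative chosen after seeing the data. The 10 called by the 11 and by the reported test kept their direction. Of the 93 companion hexamers called, 53 and 67 kept their call and direction in replicate 2 and replicate 1 alone. Outside promoter windows, also chosen after seeing the data, 11 were called. Against windows of the same peaks 500 bp to the left, 333 were called, and 29 of the reported ones had the opposite direction. There CACATG was 4.798 percentage points more frequent at the summits and GAGAGA 11.24 (Fisher's exact test, adjusted p = 0.00154 and 2.24e-10). The differences of ACGCGC and GCGCGC, 0.758 and 0.379 points, did not pass (Fisher's exact test, adjusted p = 0.625 and 0.865). The lower frequency reported for these 4 is relative to other HLH-30 summits. The called classes numbered between 6 and 9 under every alternative run. Among values of single classes, bases and hexamers, 135 kept their side of the threshold, 14 lost it, 2 gained it and 4 changed sign, those just named. The depth behind the signal values is unknown, and the cause of these shifts was not tested.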
